A study of Mus musculus with 10 samples.

Results

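The enzymes that break down agmatine and that make, convert and use polyamines were examined in the cerebral cortex of *Crtc1*-/- mice and WT littermates. The set was 10 genes chosen with earlier results of these data known. Its members were all probe sets whose annotation names only 1 of these genes. This gave 15 of the 45037 tested probe sets, which read 8 of the 10 genes, among 18193 genes on the array. *Agmat*, *Sat1* and *Srm* had 1 probe set each, *Arg2*, *Smox* and *Dhps* had 2 each, and *Azin2* and *Odc1* had 3 each. The other members have no values here, since 3 probe sets name *Sms* together with a pseudogene and no probe set in the annotation names *Amd1*.

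RNA was taken from the cortex of 5 WT and 5 *Crtc1*-/- mice, all untreated adult females of the C57BL/6N strain, 2 months old by the labels, and hybridized to 1 GeneChip Mouse Genome array (Affymetrix) per mouse. The mutants, labelled Crtc1KO, lack a coactivator of the transcription factor CREB, and the controls were their WT littermates. The sources used here do not describe the deleted part of the gene relative to the probe sets. The study used these arrays to look for expression changes that accompany the depressive-like behavior of this line. In the mutants, the *Crtc1* probe set 1434476_at fell by 3.32 on the log2 scale (SE 0.12, where SE is the standard error, adjusted p = 2.13e-07 from limma), which bears out the labels. Probe set 1458443_at of this gene fell by 1.78 (adjusted p = 1.36e-05), while 1446533_at was at −0.03 (adjusted p = 0.963). The 7 measured markers of cortical excitatory neurons were all bright, each with a mean above at least 87.2% of probe sets. The values are log2 intensities with 1 value per probe set and array, so levels of different probe sets are not compared.

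Agmatine is made from arginine by decarboxylation and acts on imidazoline, adrenergic and glutamate receptors. Agmatinase, the product of *Agmat*, splits it into putrescine and urea. Putrescine is also made by another route, in which arginase forms ornithine and ornithine decarboxylase, the product of *Odc1*, removes its carboxyl group. Spermidine synthase (*Srm*) and spermine synthase (*Sms*) extend putrescine with groups that the *Amd1* product supplies, *Sat1* and *Smox* encode enzymes that take polyamines back down, and the *Dhps* product spends spermidine on a modified residue of the translation factor eIF5A. Polyamines and agmatine modulate ion channels in the brain, including the N-methyl-D-aspartate receptor.

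CRTC1 acts through CREB, whose known target is the cAMP-response element, so the start regions of the members were read for its letters. RefSeq promoters (GRCm38.p6) of 300 bases, 250 before and 50 after a start site, were matched by symbol for 7 of the 10 genes, which leaves *Azin2*, *Arg2* and *Srm*. *Agmat* is shown as the member that rose and *Odc1* as the other source of putrescine, each over the 250 bases before the start. Capitals mark TGACG, the short form of the element, on either strand.
Agmat, chr4:141746425-141746674, plus strand: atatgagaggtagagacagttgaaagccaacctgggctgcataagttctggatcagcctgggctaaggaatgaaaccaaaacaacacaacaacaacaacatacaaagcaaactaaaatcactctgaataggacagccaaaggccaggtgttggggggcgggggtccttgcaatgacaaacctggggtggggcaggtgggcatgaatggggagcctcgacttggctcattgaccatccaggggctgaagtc
Odc1, chr12:17544623-17544872, plus strand: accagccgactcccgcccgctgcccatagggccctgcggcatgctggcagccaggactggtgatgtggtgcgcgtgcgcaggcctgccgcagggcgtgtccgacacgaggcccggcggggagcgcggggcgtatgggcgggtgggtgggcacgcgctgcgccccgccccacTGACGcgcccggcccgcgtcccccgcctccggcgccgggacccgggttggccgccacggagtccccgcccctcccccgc
The short form occurred in 2 of the 7 genes, at 79 bases before the start of *Odc1* and, as CGTCA, at 60 bases before that of *Amd1*. It occurred in 23.0% of all 27025 genes with promoters of this length, and in 20.8% of all 32851 promoters. The full element TGACGTCA, which contains the short form on each strand, was in none of the members' windows and in 2.03% of all genes and 1.79% of all promoters. Both windows of *Agmat*, which has a second start in RefSeq, lacked these letters. A match is a description of the letters and not a site of binding.

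*Agmat* rose in *Crtc1*-/- mice, with no overlap between the genotypes. In WT mice 1 to 5, its probe set 1427214_at read 5.79, 6.10, 5.53, 5.76 and 6.07 as log2 values. In *Crtc1*-/- mice 1 to 5 it read 6.84, 6.53, 6.45, 6.29 and 6.84. WT mouse 3 was the lowest and *Crtc1*-/- mice 1 and 5 were the highest, and a gap of 0.19 lay between the highest WT and the lowest *Crtc1*-/- mouse. This was a log2 fold change of 0.74 ± 0.13 (SE), a 1.67-fold increase with a 95% confidence interval of 1.37 to 2.04 (adjusted p = 0.0442 from limma over all probe sets, and p = 0.00794 by the exact two-sided permutation test, the smallest that 5 mice against 5 allow). Over the array 0.115% of probe sets rose and 0.187% fell, 0.302% in all. The genotypes did not overlap in 2.08% of probe sets, and in 0.713% all *Crtc1*-/- mice lay above all WT mice. *Agmat* varied more within a genotype than most probe sets, with a standard deviation of 0.24, where the median probe set had 0.11 and 94.7% of probe sets had less. *Agmat* entered the set with its difference in these arrays already known, so this test is no independent evidence of it. The call was kept without *Crtc1*-/- replicate 4 (adjusted p = 0.0359) and was lost when any other mouse was left out, with adjusted p from 0.0563 to 0.126 and log2 fold changes of 0.66 to 0.80.

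None of the other 14 probe sets, of 7 genes, passed the test. Their log2 fold changes ran from −0.22 to 0.05 and their adjusted p from 0.610 to 0.988. Over all 15, 4 log2 fold changes were above 0 and 11 below, with a median of −0.07, where 49.9% of all probe sets were above 0 and their median was 0.00. At an unadjusted p of 0.05, 6 of the 15 passed, where 7.19% of all probe sets did. They were *Agmat* and, with lower means in *Crtc1*-/- mice, both probe sets of *Dhps*, 2 of the 3 of *Azin2* and 1 of the 2 of *Arg2*. The 95% confidence intervals of these 14 probe sets lay within 0.42 of 0 on either side. Differences in array value as large as that of *Agmat* were thus outside all of them. Among them *Smox* 1446509_at and *Arg2* 1438841_s_at were dim, with means above 11.4% and 18.7% of probe sets. How well these dim probe sets report their transcripts was not tested.

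**Figure D1:**
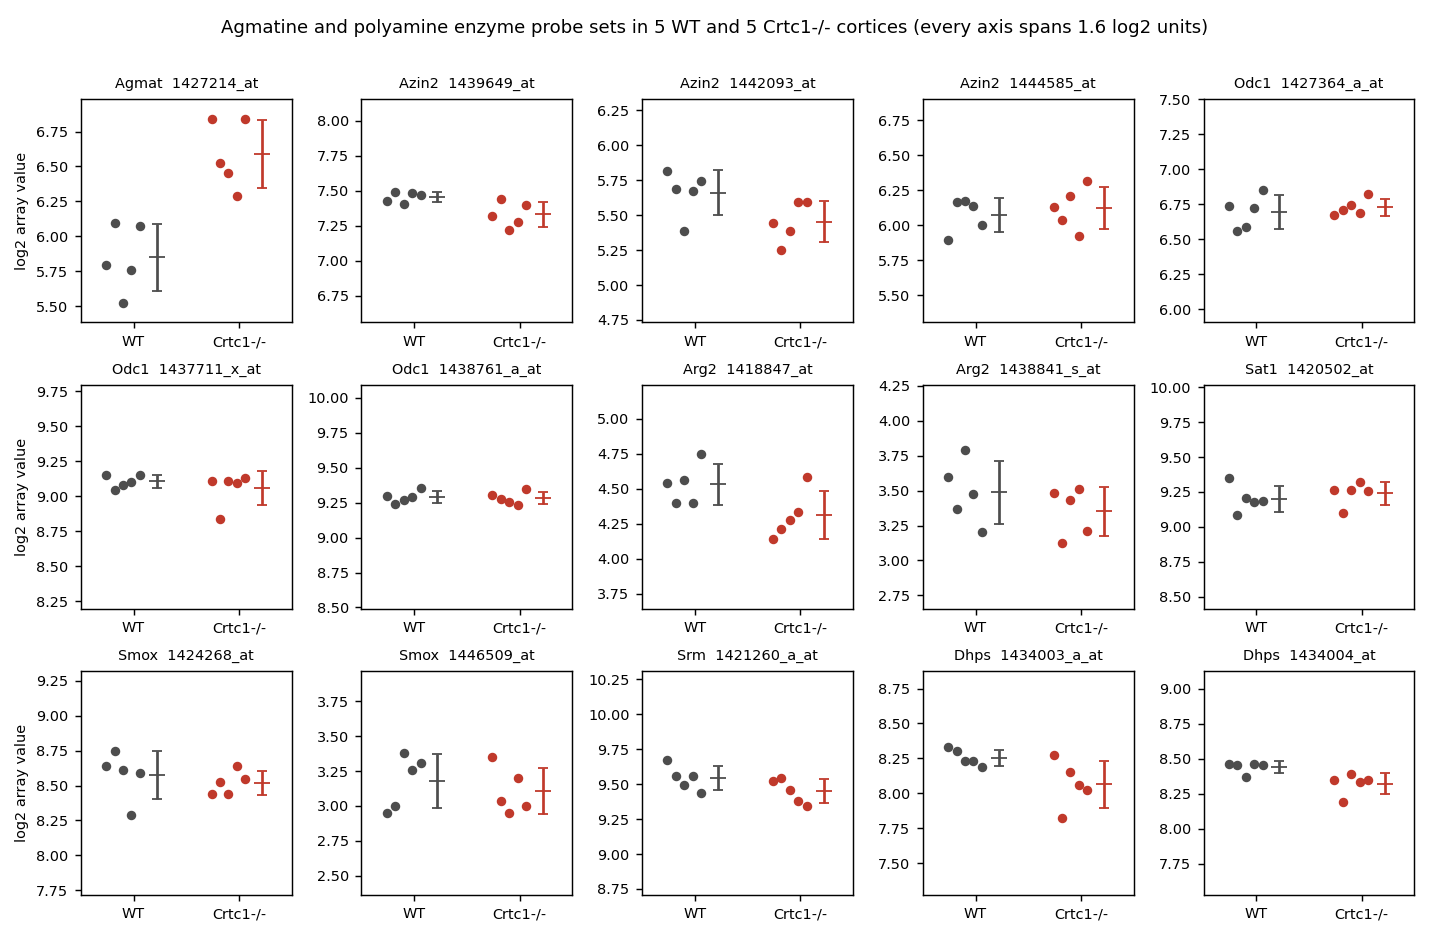
Log2 array values (y axis) of the 15 probe sets in 5 WT (grey) and 5 Crtc1-/- (red) mice, 1 point per mouse, where bars give mean ± SD of each genotype. Axes start above 0 and cover equal spans. In Agmat alone all Crtc1-/- mice lie above all WT mice, and in the other panels the groups overlap.

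*Arg2* encodes arginase 2, the mitochondrial enzyme that turns arginine into ornithine and urea. Probe set 1418847_at read 4.54, 4.40, 4.56, 4.40 and 4.75 (log2) in WT mice and 4.14, 4.21, 4.28, 4.33 and 4.59 in *Crtc1*-/- mice. The first 4 *Crtc1*-/- mice lay under all WT mice, and *Crtc1*-/- mouse 5 lay within the WT range. Its log2 fold change was −0.22 ± 0.09 (SE, adjusted p = 0.632 from limma). The dimmer 1438841_s_at, whose name marks probes that can bind several transcripts, ran from 3.20 to 3.79 in WT and from 3.12 to 3.51 in *Crtc1*-/- mice, with a log2 fold change of −0.13 (adjusted p = 0.888). Both *Arg2* probe sets lay in the lower part of the array, since 38.8% and 18.7% of probe sets had lower means. Calls of presence were not part of the data used.

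*Azin2* encodes an antizyme inhibitor that resembles ornithine decarboxylase without its activity, and it was once described as arginine decarboxylase. Its brightest probe set, 1439649_at, read 7.43, 7.49, 7.41, 7.48 and 7.47 in WT mice and 7.32, 7.44, 7.22, 7.28 and 7.40 in *Crtc1*-/- mice. All *Crtc1*-/- mice but number 2 lay under the WT range. The difference was −0.13 ± 0.05 in log2 (SE, adjusted p = 0.626 from limma), or 0.917 of the WT level with a 95% confidence interval of 0.849 to 0.990. At 1442093_at, values ran from 5.39 to 5.81 in WT and from 5.25 to 5.59 in *Crtc1*-/- mice, with a log2 fold change of −0.21 (adjusted p = 0.659). At 1444585_at the sign was the other way, 0.05 (adjusted p = 0.955), with *Crtc1*-/- mice 3 and 5 above all WT mice. These 3 probe sets did not vary together among mice of a genotype. Over the deviations of 10 mice from their genotype means, Pearson's r for the pairs was 0.00, 0.13 and −0.28 and Spearman's rho 0.07, 0.20 and −0.27, with exact permutation p from 0.455 to 0.995. Without the 2 mice farthest from the median of 1442093_at, r of 1439649_at and 1442093_at was 0.34. Without the 2 farthest from the median of 1444585_at, r of the other pairs was −0.23 and 0.24. *Azin2* thus had no single sign over its probe sets.

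*Odc1*, the rate-limiting enzyme of polyamine synthesis, had nearly the same level in both genotypes at its brightest probe set. There, 1438761_a_at read 9.30, 9.24, 9.27, 9.29 and 9.35 in WT mice and 9.31, 9.27, 9.25, 9.23 and 9.35 in *Crtc1*-/- mice. Here the log2 fold change was −0.01 ± 0.04 (SE, adjusted p = 0.988 from limma), and the 95% confidence interval of the fold was 0.932 to 1.06. It was among the steadiest probe sets of the array, since 3.54% of probe sets had as small or a smaller spread within genotypes. At 1437711_x_at, whose suffix marks probes that may bind other transcripts, *Crtc1*-/- mouse 2 read 8.84 and the other 9 mice 9.04 to 9.15. The difference there was −0.05 in log2 (adjusted p = 0.934), and it was 0.00 without *Crtc1*-/- mouse 2. At 1427364_a_at it was 0.04 (adjusted p = 0.955). Among mice of a genotype, 1427364_a_at and 1438761_a_at had r = 0.77 (exact permutation p = 0.00715, adjusted p = 0.0644 over 9 pairs of probe sets of the same gene) and rho = 0.68 (exact permutation p = 0.0288, adjusted p = 0.253). Without the 2 mice farthest from the median of 1438761_a_at r was 0.44. Leaving out its extremes narrows its range, so this does not show that the relation rests on those mice.

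*Srm*, which makes spermidine, read 9.67, 9.56, 9.49, 9.56 and 9.44 at 1421260_a_at in WT mice and 9.53, 9.54, 9.46, 9.38 and 9.35 in *Crtc1*-/- mice. Here *Crtc1*-/- mice 4 and 5 lay under all WT mice and the others within their range, with a difference of −0.09 ± 0.06 in log2 (SE, adjusted p = 0.825 from limma). *Sat1*, which acetylates polyamines for export or oxidation, ran from 9.08 to 9.35 in WT and from 9.10 to 9.32 in *Crtc1*-/- mice at 1420502_at. All *Crtc1*-/- values of *Sat1* lay inside the WT range, and the log2 fold change was 0.04 (adjusted p = 0.946). *Smox*, which oxidizes spermine to spermidine, ran from 8.29 to 8.74 in WT and from 8.44 to 8.64 in *Crtc1*-/- mice at 1424268_at, with a log2 fold change of −0.06 (adjusted p = 0.943). Its other probe set, 1446509_at, had a mean higher than only 11.4% of probe sets and differed by −0.07 in log2 (adjusted p = 0.945). For *Sat1* and the brighter *Smox* probe set the 95% confidence intervals of the fold were 0.939 to 1.13 and 0.853 to 1.08.

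*Dhps* encodes deoxyhypusine synthase, which moves part of spermidine onto eIF5A. Probe set 1434004_at read 8.46, 8.45, 8.37, 8.46 and 8.45 in WT mice and 8.35, 8.19, 8.39, 8.33 and 8.35 in *Crtc1*-/- mice. Only *Crtc1*-/- mouse 3 reached the WT range, and its lower end was set by WT mouse 3. Means differed by −0.12 ± 0.05 in log2 (SE, adjusted p = 0.636 from limma). The exact two-sided permutation test gave p = 0.0159, the smallest among the 14 probe sets other than that of *Agmat* and not corrected over them. By this test p was 0.0476 at 1434003_a_at and 0.0317 at *Azin2* 1439649_at. At 1434003_a_at the values were 8.33, 8.30, 8.23, 8.23 and 8.19 in WT mice and 8.28, 7.82, 8.15, 8.06 and 8.02 in *Crtc1*-/- mice. Again 4 of the 5 mutants lay under all WT mice, with a difference of −0.19 ± 0.08 in log2 (SE, adjusted p = 0.610 from limma). Both probe sets were lowest in *Crtc1*-/- mouse 2, and without it the log2 fold changes were −0.09 and −0.13. *Dhps* lies on the same chromosome as *Crtc1*, 187 protein-coding genes away in the gene order of GRCm38.p6, and the part of that linkage in these values was not tested.

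**Figure D2:**
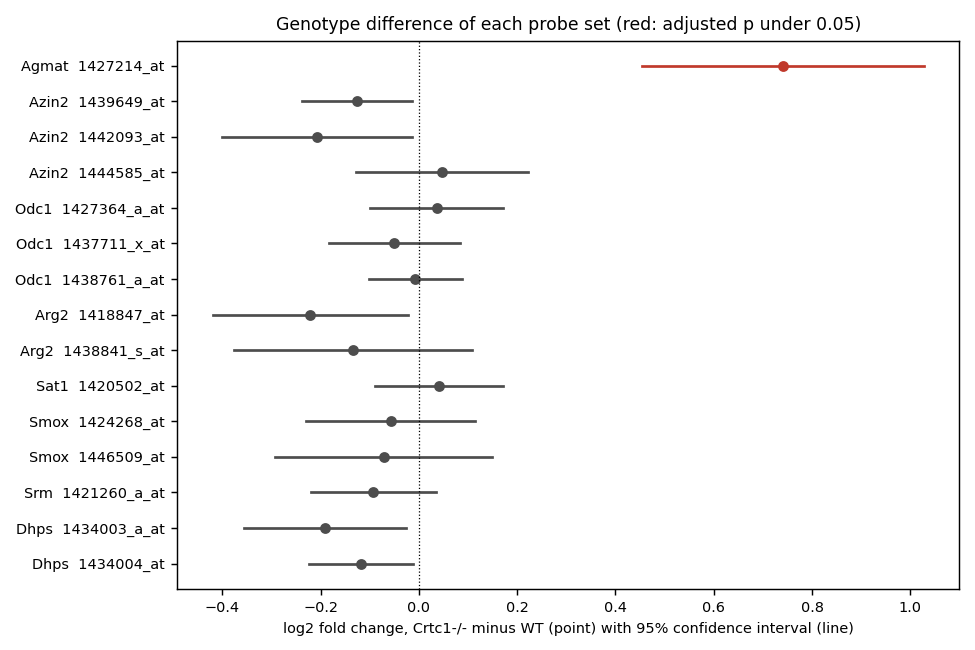
On the x axis, the log2 fold change from WT to Crtc1-/- of each of the 15 probe sets (y axis) as a point with its 95% confidence interval from limma as a line. Agmat at 0.74 is the single probe set past the adjusted threshold, and the intervals of both Dhps, 2 Azin2 and 1 Arg2 probe sets lie below 0 without passing it.

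The other genes of the pathway were read in 9 groups by role, with the brightest probe set of each gene. Of 51 listed genes 44 were measured, and *Agmat* rose (adjusted p = 0.0224 over genes), none fell and 43 did not pass. Over the array 0.308% of genes rose and 0.456% fell, 0.764% in all. Of the 44 genes 23 had a log2 fold change above 0, where 48.4% of all genes had, and the median was 0.00 in both. Among the 36 measured genes outside the members limma called 0, and 2 had an unadjusted p under 0.05, where 9.86% of all genes had.

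None of the 3 arginine transporters passed. They had log2 fold changes of 0.03 to 0.04, among them *Slc7a1* (0.04, adjusted p = 0.902 from limma over genes) and *Slc7a2* (0.03, adjusted p = 0.915). Of 13 genes that make or use arginine, among them the nitric oxide synthases, 10 had a log2 fold change above 0 and 3 below, and none passed. Next to *Arg2*, the smallest p was that of *Gamt*, which completes creatine (0.04, adjusted p = 0.855). The antizymes *Oaz1* to *Oaz3*, which bind ornithine decarboxylase, and the inhibitor *Azin1* did not pass. *Oaz3* was at −0.10 (adjusted p = 0.805), and at −0.03 (adjusted p = 0.905) with the mean of all its probe sets.
Past spermine and spermidine, none of 4 measured genes of catabolism passed, *Sat2*, an acetyltransferase related to *Sat1*, being at −0.04 (adjusted p = 0.887). All 4 genes of hypusine formation had log2 fold changes below 0, from −0.12 for *Dhps* to −0.01 for *Eif5a2*, and *Dohh*, which finishes the modification, was at −0.03 (adjusted p = 0.884). In the salvage of methylthioadenosine, the by-product of spermidine and spermine synthesis, *Adi1* and *Apip* were at 0.07 and 0.08 (adjusted p = 0.701 and 0.744). In polyamine transport, *Slc47a1*, an exporter of organic cations, had the largest log2 fold change outside the members, 0.45 ± 0.19 (SE, adjusted p = 0.433). It read 5.21, 4.92, 4.91, 5.49 and 5.48 in WT mice and 5.32, 5.79, 5.14, 6.01 and 6.02 in *Crtc1*-/- mice, so that *Crtc1*-/- mice 2, 4 and 5 lay above all WT mice. *Atp13a3*, a pump that carries polyamines, was at −0.11 ± 0.04 (SE, adjusted p = 0.424), with 8.55 to 8.63 in WT and 8.41 to 8.58 in *Crtc1*-/- mice. With the mean of its 3 probe sets in place of the brightest, its log2 fold change was −0.01 (adjusted p = 0.972 from limma over genes).

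**Figure D3:**
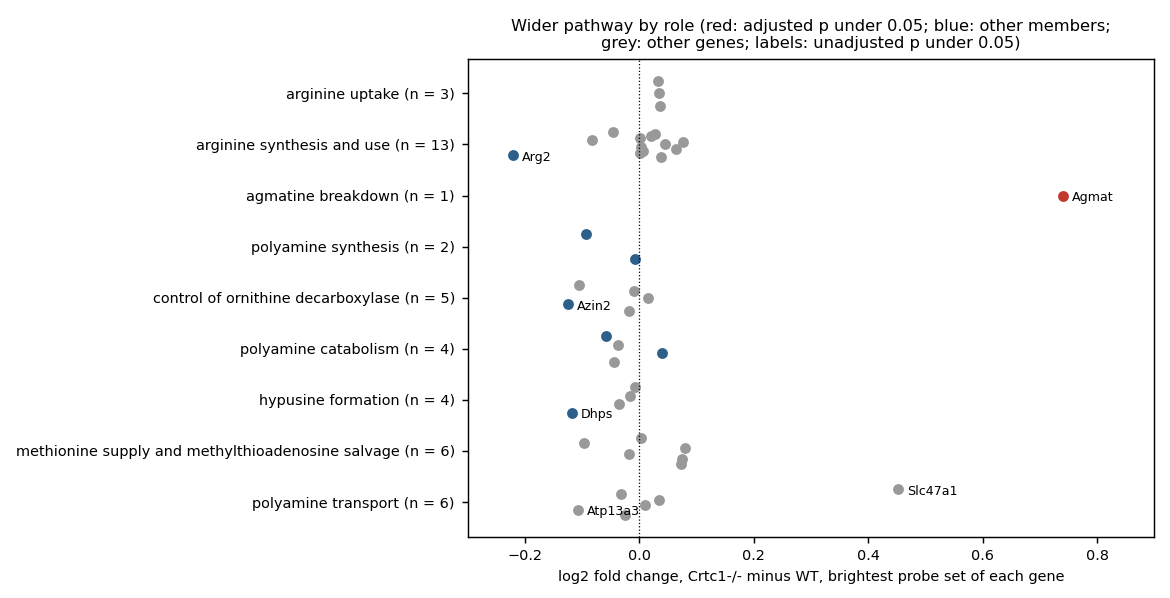
On the x axis, the log2 fold change from WT to Crtc1-/- of the brightest probe set of 44 genes, grouped by role (y axis). Each point is a gene, red where it passed over genes, blue for other members and grey for the rest, with labels where the unadjusted p was under 0.05. Agmat at 0.74 stands apart from the other genes, of which Slc47a1 at 0.45 is the farthest from 0.

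Whether members varied with *Agmat* among mice of the same genotype was read from the deviations of the 10 mice from their genotype means, which removes the genotype difference. In limma with genotype and *Agmat* as terms, 0 of the 14 other member probe sets passed, and 0% of all 45036 others did (1 of the 14 had an unadjusted p under 0.05, as did 3.6% of all). Pearson's r of the members ran from −0.63 to 0.61 with a median of 0.18, and 10 of 14 were above 0. Over all probe sets r had a median of 0.01 and lay between −0.54 and 0.56 in the middle 90%.
The highest r was that of *Odc1* 1438761_a_at at 0.61 (exact permutation within genotypes, p = 0.0868), with rho = 0.64 (exact permutation p = 0.0848). WT mouse 2, where *Agmat* was high and *Odc1* low, lowered this value, since r was 0.95 without that mouse. With each mouse left out in turn, r ran from 0.49 to 0.95. It was 0.31 without the 2 mice farthest from the median of *Agmat*. *Azin2* followed, with r of 0.51, 0.39 and 0.31 at its 3 probe sets (exact permutation p = 0.174, 0.293 and 0.410) and of 0.48, 0.30 and −0.0025 without the 2 farthest mice. Single mice carried part of this, since r was 0.03 at 1442093_at without WT mouse 3 and 0.03 at 1444585_at without *Crtc1*-/- mouse 4. The lowest was the dim *Arg2* probe set 1438841_s_at at −0.63 (exact permutation p = 0.0731), with rho = −0.47 (exact permutation p = 0.194) and r = −0.89 without the 2 farthest mice. For *Srm* and the brighter *Smox* probe set r was −0.02 and 0.06.

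Genes most like *Agmat* in this measure, among 11779 genes whose brightest probe set had a mean above the array median, were *Alg3* (r = 0.90), *Coil* (0.90), *Hspb11* (0.89), *Nsmce1* (0.88) and *Chn1* (0.88). Those most opposed were *Thoc1* (−0.93), *Hdac11* (−0.92), *Tfrc* (−0.89), *9530059O14Rik* (−0.88) and *Acot3* (−0.87). These 10 genes were picked for their r over 10 mice and carry no test. None of them passed between genotypes, with log2 fold changes from −0.11 to 0.20.

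Marker genes of other cells also differed between the genotypes, though none of 10 list means passed correction over the lists. In pieces of tissue, fewer cells of a type and less RNA per cell cannot be told apart. All 11 measured oligodendrocyte markers had log2 fold changes above 0, and their mean ran from 9.49 to 9.84 in WT and from 9.78 to 10.10 in *Crtc1*-/- mice (exact permutation p = 0.0317, adjusted p = 0.0992 over 10 marker lists). Of 10 hippocampal markers 6 were below 0, of which 2 fell, and 4 were above 0. The mean of the list ran from 5.21 to 5.38 in WT and from 5.05 to 5.20 in *Crtc1*-/- mice (exact permutation p = 0.00794, adjusted p = 0.0794). Of 8 interneuron markers *Sst* fell (log2 fold change −0.54), and 7 of 8 were below 0. The list mean ran from 9.60 to 9.73 in WT and from 9.54 to 9.63 in *Crtc1*-/- mice (exact permutation p = 0.0238, adjusted p = 0.0992). Apart from *Sst*, the markers below 0 had log2 fold changes of only −0.11 to −0.01, so *Sst* had the largest part in the lower mean. *Pvalb*, which marks another class of interneurons, was at 0.10. Of 7 excitatory neuron markers 6 were below 0, with means of 9.66 to 9.79 in WT and 9.60 to 9.69 in *Crtc1*-/- mice (exact permutation p = 0.0397, adjusted p = 0.0992). The excitatory neuron mean was not used as a covariate. With each of the other means described here as a covariate in turn, the log2 fold change of *Agmat* was 0.92 (oligodendrocyte, adjusted p = 0.147 from limma), 0.69 (hippocampal, adjusted p = 0.669) and 1.05 (interneuron, a fit chosen with the values known, adjusted p = 0.0730). Its SE was 0.13 without a covariate, 0.16 with the oligodendrocyte or interneuron mean and 0.21 with the hippocampal mean. The hippocampal mean did not overlap between the genotypes, and the others differed before correction. These fits thus cannot tell marker and genotype differences apart. None of the other 14 member probe sets passed with any of these covariates. The difference at *Azin2* 1442093_at went from −0.21 to −0.13 with either of the first 2 lists and to 0.0055 with the interneuron markers.
Among mice of a genotype, *Agmat* and the interneuron marker mean had r = 0.66 (exact permutation p = 0.0501, adjusted p = 0.501 over 10 lists) and rho = 0.82 (exact permutation p = 0.00958, adjusted p = 0.0958). Here r was 0.51 without the 2 mice farthest from the median of *Agmat*. The relation thus did not pass correction. The signs differ between and within genotypes, since *Agmat* was higher and the interneuron mean lower in *Crtc1*-/- mice. With the oligodendrocyte mean r was −0.47 (exact permutation p = 0.189) and with the astrocyte mean −0.50 (exact permutation p = 0.166). With the other 7 lists r lay between −0.30 and 0.36.

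**Figure D4:**
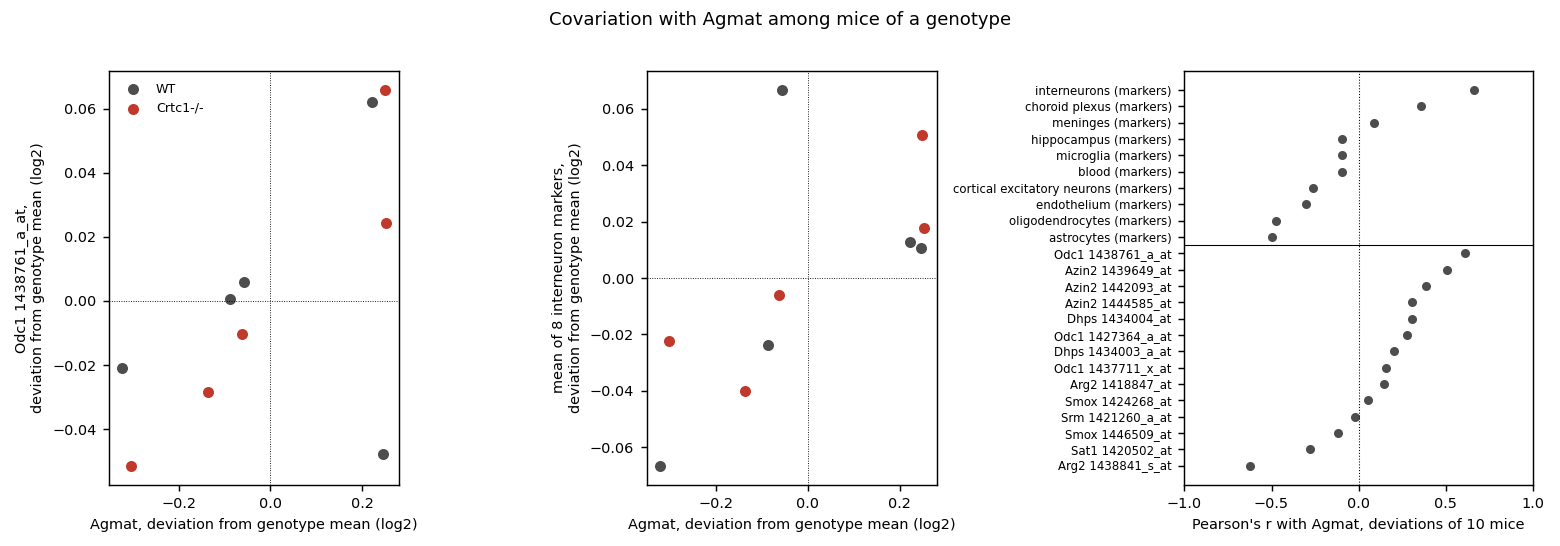
Left and middle, deviation of each mouse from its genotype mean on the log2 scale, Agmat on the x axis against Odc1 1438761_a_at or the mean of 8 interneuron markers on the y axis, for 5 WT (grey) and 5 Crtc1-/- (red) mice. Right, Pearson's r with Agmat over the 10 deviations for 10 marker means (top) and 14 member probe sets (bottom), from −0.63 to 0.66.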

How the data were processed

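The authors scanned GeneChip Mouse Genome arrays (Affymetrix) of cortical RNA, assessed array quality in RACE, dropped those whose normalized unscaled standard error was high, and deposited normalized log2 intensities, 1 per probe set and array. The background correction, normalization and summarization are not given in the sources used here. Precision is set by having 5 arrays for each genotype, whose medians differed by at most 0.03.

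Of 45101 probe sets, 64 controls were left out. The annotation names 1 gene for 34945 probe sets, several for 932 and none for 9160, and 34741 matched RefSeq (GRCm38.p6) by gene identifier, used for names and gene order. The deposited values were fitted with limma 3.58.1 (R 4.3.3). Differences are those of *Crtc1*-/- from WT mice, and p-values were adjusted by Benjamini-Hochberg over every probe set tested, or over genes where so stated, with calls at 0.05. The fits were tested on simulated data with known changes. Members, gene lists and tests were chosen with earlier results of these data known. The names given are all members, *Crtc1*, up to 2 further genes with the smallest p per group of the pathway, and the 5 genes most and least like *Agmat*. *Sst*, *Pvalb* and *Eif5a2* were named after their values were seen. Single values used exact permutation tests, two-sided, and correlations permuted mice within genotypes (14400 orders). Alternatives were other normalizations, filters, variance models and covariates, the replicate number as a block, and leaving out each mouse.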

Additional observations from a re-analysis of the deposited data

Results flagged for a closer look

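Of 30 groups of 5 mice (15 probe sets in both genotypes), 4 had a mouse far from the others, where chance flags about 1 in 20. *Odc1* 1437711_x_at read 8.84 in *Crtc1*-/- mouse 2, with the next lowest mutant at 9.09. *Sat1* read 9.10 in the same mouse, with the next at 9.26. *Dhps* 1434004_at read 8.19 in that mouse, with the next at 8.33, and 8.37 in WT mouse 3, with the next WT mouse at 8.45. So 3 of the 4 values came from *Crtc1*-/- mouse 2. Its array did not stand apart over all probe sets, since its mean correlation with the other arrays was 0.996 and those of all arrays lay between 0.995 and 0.997. Without it, the log2 fold changes were −0.09 for *Dhps* 1434004_at (adjusted p = 0.810 from limma) and 0.08 for *Sat1* (adjusted p = 0.896).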

How the results depend on the processing

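The log2 fold change of *Agmat* stayed above 0 in all 21 alternatives, from 0.66 to 1.05, and passed in 6 of them (limma). It did not pass with array weights (0.71, adjusted p = 0.0517), with the replicate number as a block (0.74, adjusted p = 0.0778), without moderation (0.74, adjusted p = 0.190), or with the oligodendrocyte (0.92), hippocampal (0.69) or interneuron (1.05) marker mean as a covariate, so that 0 member probe sets passed there. The marker means differed between the genotypes before correction, so fits with them cannot tell marker and genotype differences apart. With an array left out, the log2 fold change of *Agmat* ran from 0.66 to 0.82 and the members called from 0 to 1. Of the pathway genes 0 passed without moderation and with the oligodendrocyte or hippocampal covariate, and 0 to 1 with an array left out. No member fell in any alternative run. Over all probe sets, 85 rose and 154 fell with a trended and robust prior, 12 and 28 with the replicate block, 25 and 50 without moderation, 8 and 18 with the oligodendrocyte, 5 and 11 with the hippocampal and 7 and 13 with the interneuron covariate, and 24 to 40 and 45 to 77 with an array left out. Over all probe sets, the same-numbered mutant was the closest match for 1 WT array of 5. A count over 5 arrays cannot decide whether the replicate numbers pair the mice.
The excitatory marker difference lost its unadjusted call with quantile normalization (−0.068, p = 0.0873, exact permutation) and centring on array medians (−0.079, p = 0.0635, exact permutation), and ran from −0.093 to −0.060 with an array left out, passing without correction over lists in 4 of 10 such tests (exact permutation p from 0.00794 to 0.0873). That of oligodendrocytes ran from 0.16 to 0.25 (exact permutation p from 0.0238 to 0.0794), passing in 5 of 10.
Some signs turned, mostly of values near 0. The exception among log2 fold changes was *Azin2* 1442093_at, at −0.21 without a covariate. The correlation of *Srm* with *Agmat* was 0.0072 with quantile normalization and 0.012 with centring. With the oligodendrocyte covariate, the log2 fold changes of *Odc1* 1427364_a_at and *Smox* 1424268_at were −0.0076 and 0.065, and the correlations of *Smox* 1424268_at and 1446509_at with *Agmat* were −0.30 and 0.14. With hippocampal markers in the fit, log2 fold changes of *Odc1* 1427364_a_at, *Sat1*, *Smox* 1424268_at and *Slc7a1* were −0.027, −0.00042, 0.0072 and −0.0076. With the interneuron covariate, those of *Azin2* 1442093_at and 1444585_at, *Odc1* 1438761_a_at and *Smox* 1424268_at were 0.0055, −0.0027, 0.039 and 0.0041. With an array left out, log2 fold changes ran from −0.00048 to 0.10 (*Azin2* 1444585_at), −0.069 to 0.0043 (*Odc1* 1437711_x_at) and −0.024 to 0.0080 (*Odc1* 1438761_a_at), and correlations with *Agmat* from −0.20 to 0.39 (*Arg2* 1418847_at), −0.10 to 0.31 (*Dhps* 1434003_a_at), −0.19 to 0.29 (*Smox* 1424268_at), −0.44 to 0.15 (*Smox* 1446509_at) and −0.22 to 0.21 (*Srm*). The cause was not tested.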
